A study of Rattus norvegicus with 6 samples.

Results

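The genes examined here are those of the SoxC and SoxD groups of SOX transcription factors, Sox4, Sox11 and Sox12 (SoxC) and Sox5, Sox6 and Sox13 (SoxD), with every accessible site of rat islet chromatin whose nearest gene is one of them. The sites were taken from the deposited list by the nearest gene symbol, which gave 122 sites of 5 genes. The sites of Sox4 carry a gene ID (364712) and no symbol in that list, and RefSeq pairs this ID with Sox4, so its 42 sites were added by ID. The 6 genes together had 164 of the 101603 distinct sites, 73 nearest to a SoxC gene and 91 nearest to a SoxD gene.

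SOX proteins bind short AT-rich DNA motifs through a high mobility group box and bend the DNA. SoxC proteins carry a transactivation domain, are best known from progenitor cells of the nervous system, skeleton and other organs, and in the pancreas Sox4 is needed for the formation of endocrine cells. SoxD proteins have no transactivation domain of their own, pair through a coiled coil and act with other factors, as in cartilage, where Sox5 and Sox6 work beside Sox9.

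The assay was ATAC-seq, in which more integrations of the Tn5 transposase at a place mean more open chromatin. The deposited values are counts of Tn5 integrations per site and library. Islets came from Sprague-Dawley rats and were dissociated into cells, with no sorting by cell type. The Adult group was 3 males of around 90 days with 1 library per rat, named here by their replicate numbers 4, 5 and 6. The P10 group was 3 litters at 10 days after birth, replicates 1, 2 and 3, each a mix of a few pups, and pups of both sexes were used. Age, sex and single rats against litters therefore cannot be told apart, and in bulk islets neither can fewer cells of a type and less open chromatin per cell. The comparison asks which sites near these genes change in accessibility between the nursing period and adulthood.

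Integrations inside sites numbered 11903909, 10319487 and 7916919 in the Adult libraries and 21168463, 13491534 and 18108935 in the P10 libraries. Sites of the 6 genes had a median of 52.2 counts per library, against 64.8 over all sites, and 28 of the 164 had a mean under 20 counts. Levels are given as CPM, counts scaled to library size with TMM factors, which rest on a trimmed mean of the log ratios between libraries, and log2 fold changes are Adult over P10. A site was called at a p-value under 0.05 and a false discovery rate under 0.2 in edgeR's quasi-likelihood test over all sites.

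Of the 164 sites, 20 were called higher in Adult, 12.2% against a background of 12.3% of all sites, and 11 were called lower, 6.71% against a background of 6.63%. The family as a whole therefore changed about as often as other chromatin, and its median log2 fold change was 0.02, against -0.01 over all sites. In 25 sites the 3 adults were all above the 3 litters (background 13.8%), and in 19 they were all below (background 10.9%). The shares differed between the genes. Sox4 had 11 of 42 sites higher (26.2%) and 2 lower (4.76%), while the 122 sites of the other 5 genes had 9 higher (7.38%) and 9 lower (7.38%). SoxC sites were called higher at 14 and lower at 4 of 73, and SoxD sites higher at 6 and lower at 7 of 91. The difference between the genes was not tested.

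**Figure D1:**
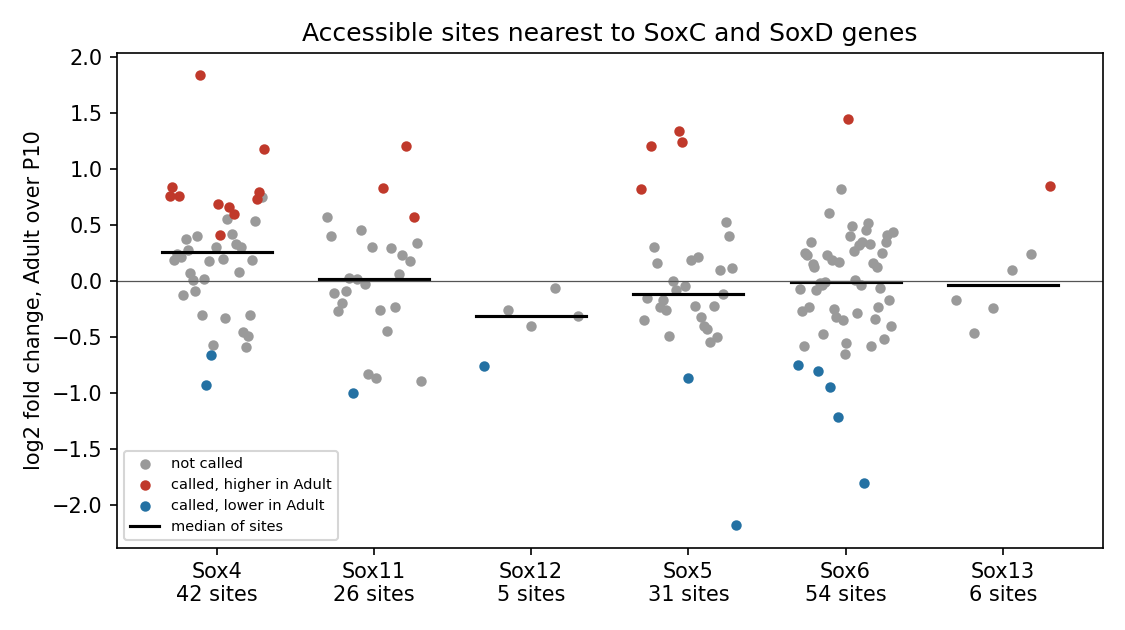
Each point is 1 of the 164 sites, by nearest gene (x axis, sites in order of position within a gene) and log2 fold change of Adult over P10 (y axis), with the median of each gene's sites as a line. Red points were called higher in Adult and blue points lower, and Sox4 has 11 of the 20 red points.

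By class, 150 of the 164 sites were DISTAL, here all over 10 kb from the start of their gene, and of these 18 were higher and 10 lower (background 13.8% and 6.45% of DISTAL sites). The 6 PROXIMAL sites, 1 to 10 kb away, held 2 higher and 1 lower (background 11.2% and 6.71%). Among the 8 sites of the TSS class, within 1 kb of a start, edgeR called 0 in either direction (background 2.73% higher and 7.87% lower), and limma voom and DESeq2 also called 0. None of these 8 had an unadjusted p under 0.05 in edgeR, and the largest changes were at Sox5. Other settings did call TSS-class sites. The Sox12 site chr3:154213726-154213967 was called lower with column sums (log2 fold change -0.50), with cyclic loess scaling (-0.53) and when sites with a mean under 50 counts were dropped (-0.49), a Sox5 site was called lower without Adult replicate 5 (-0.78), the Sox4 site passed as higher when scaled among TSS-class sites alone (0.29), and all 8 were called lower with total reads as library sizes. By distance from the nearest end of the gene, 106 of the 164 sites lay at 100 to 500 kb, with 14 called higher and 9 lower, beside 3784 higher and 1690 lower among 26960 sites of all genes at that distance. The 2 sites over 500 kb away, both nearest to Sox11, were not called.

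The counts depended on single libraries and on the limit. Sites called higher numbered 14 without Adult replicate 6, P10 replicate 2 or P10 replicate 3 and 24 without Adult replicate 5, and sites called lower numbered 6 without Adult replicate 4, without P10 replicate 2 or without P10 replicate 3. The calls over all sites moved with the same omissions, to 9709 higher and 5456 lower without Adult replicate 4, 13232 and 7215 without Adult replicate 5, 10886 and 5041 without Adult replicate 6, 7973 and 3285 without P10 replicate 2, and 8908 and 4232 without P10 replicate 3. At a false discovery rate under 0.05, 11 sites were higher and 3 lower. The share of all sites at this limit was not taken, so these counts are not set against a background. Over all sites, 12504 were higher and 6738 lower with TMM, 10447 and 10732 with column sums (median log2 fold change -0.10), and 1062 and 61663 with the study's total reads as library sizes (median -0.84). The directions given below are relative to the TMM scaling. With total reads, 1 member site was higher and 86 were lower.

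Sox4 promotes endocrine differentiation in the embryonic pancreas and takes part in insulin secretion in the adult beta cell. Its gene lies on chr17:39476956-39481661 of Rn5, on the + strand, and stands alone. The next genes that have a site in the table are Exoc2, 740880 bases before it, and Prl5a1, 702914 bases after it. Its 42 sites spanned 703962 bases, with 23 upstream of the gene, 18 downstream and 1 across its start. Summed over these sites, the level was 497, 442 and 540 CPM in Adult replicates 4, 5 and 6 and 345, 367 and 405 CPM in P10 replicates 1, 2 and 3. All 3 Adult libraries were above all 3 P10 libraries. The log2 fold change was 0.40 (SE 0.14, Benjamini-Hochberg adjusted p = 0.0955 in edgeR over 14663 genes), which passed the limits, as did 10.7% of all genes in this direction. The call was lost without Adult replicate 4 (0.40), without Adult replicate 6 (0.33) and without P10 replicate 2 (0.39), and with cyclic loess scaling (0.20).

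The site that differed most at Sox4 was chr17:39309808-39310055, 167148 bases upstream of the gene's start. It had 17.4, 15.8 and 16.1 CPM in Adult replicates 4, 5 and 6, from 193, 162 and 125 counts, and 3.53, 4.78 and 5.55 CPM in P10 replicates 1, 2 and 3, from 76, 67 and 105 counts. Every Adult library was far above every P10 library, by much more than the libraries of an age differed. The means were 16.4 ± 0.880 (SD, n = 3) and 4.62 ± 1.02 (SD, n = 3). The fitted log2 fold change of 1.83 (SE 0.24), 3.57-fold, had a Benjamini-Hochberg adjusted p of 9.85e-06 in edgeR, which ranked it 281 among all sites by p. Leaving out any 1 library gave 1.65 to 1.98.

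At the other end of the Sox4 domain, chr17:39815581-39816662 lay 338625 bases downstream of the start. Its level was 39.4, 27.3 and 36.6 CPM in Adult replicates 4, 5 and 6 and 12.5, 17.1 and 16.1 CPM in P10 replicates 1, 2 and 3. The Adult libraries were again all higher, with replicate 5 the lowest of them. This gave a log2 fold change of 1.18 (SE 0.20, Benjamini-Hochberg adjusted p = 0.00018 in edgeR). Upstream, chr17:39193761-39194901 had 44.1, 33.3 and 41.8 CPM in the Adult libraries and 23.4, 25.1 and 21.8 CPM in the P10 libraries. Here too the groups did not overlap, and Adult replicate 5 was lowest among the adults. Adult over P10, the log2 fold change was 0.76 (SE 0.17, Benjamini-Hochberg adjusted p = 0.00455 in edgeR).

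Close to the gene, the PROXIMAL site chr17:39470643-39471127, 6313 bases upstream, had 42.6, 31.9 and 42.8 CPM in Adult and 23.7, 24.5 and 24.3 CPM in P10 libraries. The P10 libraries were nearly equal and all lay below the adults. On the log2 scale the ages differed by 0.69 (SE 0.17, Benjamini-Hochberg adjusted p = 0.0100 in edgeR). The site across the Sox4 start, chr17:39476723-39478590, was the most accessible of the 42 by CPM and behaved otherwise. It had 61.5, 48.1 and 57.1 CPM in Adult and 49.8, 46.9 and 48.7 CPM in P10 libraries. Adult replicate 5 fell among the P10 values, so the ages were not apart. It had a log2 fold change of 0.20 (SE 0.16, Benjamini-Hochberg adjusted p = 0.528 in edgeR) and it was not called. Scaled among TSS-class sites alone, the same counts gave 0.29 (edgeR, Benjamini-Hochberg adjusted p = 0.168), which passed the limits.

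A pair of Sox4 sites went the other way. At chr17:39334982-39335656, 141974 bases upstream, the level was 6.51, 7.30 and 9.80 CPM in Adult and 12.6, 11.7 and 20.5 CPM in P10 libraries. All adults were below all pups, and P10 replicate 3 stood well above the other 2 litters. That was a log2 fold change of -0.93 (SE 0.25, Benjamini-Hochberg adjusted p = 0.0164 in edgeR), and it was -0.64 at the smallest with 1 library left out. The other, chr17:39371925-39372475, had 5.08 ± 0.541 CPM (SD, n = 3) in Adult and 8.04 ± 1.09 CPM (SD, n = 3) in P10, a log2 fold change of -0.66 (SE 0.26, Benjamini-Hochberg adjusted p = 0.117 in edgeR). That call was lost without Adult replicate 4 (-0.60), without P10 replicate 2 (-0.61) and without P10 replicate 3 (-0.62). The site raised most in adults and both lowered sites thus lay in the same upstream stretch, 105031 to 167148 bases from the start.

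Of the 11 raised Sox4 sites, 6 were upstream and 5 downstream, 2 were PROXIMAL and 8 lay 100 to 500 kb from the gene. The lowest log2 fold change among the raised sites was 0.41 and the highest 1.83. Of the 29 sites that were not called, 20 had a positive log2 fold change, and they spanned -0.59 to 0.75. Over all genes, 37590 of the 82361 sites not called were positive. The median over all 42 was 0.26. Without Adult replicate 6 the raised sites numbered 7, without Adult replicate 5 they numbered 14, and at a false discovery rate under 0.05 they numbered 6. No background was taken at that stricter limit. With total reads as library sizes, 1 Sox4 site was raised and the summed level of the gene turned to -0.42.

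**Figure D2:**
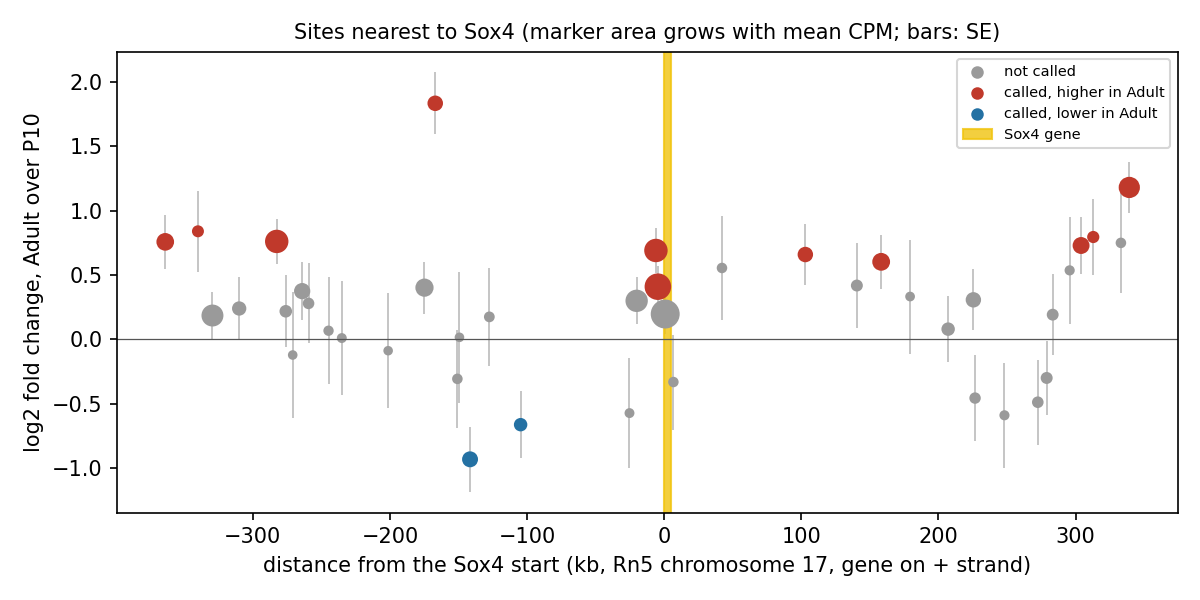
The 42 sites nearest to Sox4 by distance from the gene's start (x axis, kb on chromosome 17 of Rn5) and log2 fold change of Adult over P10 with its standard error (y axis). The area of a point grows with its mean CPM. Raised sites (red) lie on both sides of the gene, and both lowered sites (blue) lie upstream.

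Sox11, the SoxC gene best known from developing neurons, had 26 sites, all DISTAL, around its gene at chr6:55343072-55345088 on the - strand. The nearest was 13191 bases away, so no site was listed at its start. Its summed level was 110, 107 and 124 CPM in the Adult libraries and 93.2, 106 and 118 CPM in the P10 libraries. The groups overlapped. The summed log2 fold change of 0.11 (SE 0.12, Benjamini-Hochberg adjusted p = 0.624 in edgeR) was not called, and over sites within 100 kb it was -0.06.

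Of the Sox11 sites, 3 were raised, 1 was lowered and 22 were not called, with a median of 0.02. The raised share was 11.5% and the lowered share 3.85%, against 12.3% and 6.63% of all sites. The raised sites were all upstream and the lowered site downstream. At chr6:55784891-55785251, 439803 bases from the start, the level was 6.96, 4.97 and 6.83 CPM in Adult and 2.32, 3.85 and 2.06 CPM in P10 libraries. The groups did not overlap, though Adult replicate 5 and P10 replicate 2 came close. The ratio of the ages was 1.20 (SE 0.31, Benjamini-Hochberg adjusted p = 0.0120 in edgeR) on the log2 scale. The lowered site, chr6:55141974-55142406, had 1.45, 2.14 and 2.32 CPM in Adult and 3.11, 4.85 and 3.86 CPM in P10 libraries. Its adults were all below its pups, on 16 to 73 counts per library. The log2 fold change was -1.004 (SE 0.35, Benjamini-Hochberg adjusted p = 0.0687 in edgeR), and the call was lost without Adult replicate 4 (-0.81) and without P10 replicate 2 (-0.85).

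The other raised Sox11 sites were less firm. Values at chr6:55492337-55492545 were 3.91 ± 0.418 CPM (SD, n = 3) in Adult and 2.20 ± 0.260 CPM (SD, n = 3) in P10, with a log2 fold change of 0.83 (SE 0.32, Benjamini-Hochberg adjusted p = 0.116 in edgeR). This call was lost without Adult replicate 6 (0.79), P10 replicate 1 (0.75), P10 replicate 2 (0.91) or P10 replicate 3 (0.79). Values at chr6:55823245-55823559 were 10.2 ± 0.910 CPM (SD, n = 3) and 6.79 ± 1.63 CPM (SD, n = 3), with a log2 fold change of 0.58 (SE 0.25, Benjamini-Hochberg adjusted p = 0.164 in edgeR). This one was lost without Adult replicate 4 (0.50), Adult replicate 6 (0.62) or P10 replicate 2 (0.38), and with column sums (0.48), cyclic loess (0.46) or a minimum mean of 50 counts (0.49). The most accessible Sox11 site by CPM, chr6:55189258-55190276, had 12.3 ± 2.16 CPM (SD, n = 3) in Adult and 12.6 ± 2.52 CPM (SD, n = 3) in P10, a difference well within the spread of the libraries.

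Sox12, the third SoxC gene, has the weakest known developmental effects of the group. It had 5 sites around its short gene model at chr3:154212545-154213564 on the - strand, 3 of the TSS class and 2 PROXIMAL. All 5 had a negative log2 fold change, as did 51509 of the 101603 sites of all genes. Summed over the 5 Sox12 sites, the level was 75.0, 69.2 and 68.3 CPM in Adult and 92.9, 81.1 and 83.6 CPM in P10 libraries. Every adult was below every litter. This gave a log2 fold change of -0.28 (SE 0.11, Benjamini-Hochberg adjusted p = 0.156 in edgeR), which passed the limits, as did 7.77% of all genes in this direction. The call was lost without Adult replicate 4 (-0.32), 5 (-0.26) or 6 (-0.25) and without P10 replicate 1 (-0.23) or 2 (-0.32). Over the TSS-class sites alone the value was -0.08 and was not called.

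The lowered Sox12 site was chr3:154212178-154212387, just past the 3′ end of the gene. It had 6.96, 5.55 and 5.29 CPM in Adult and 10.7, 11.5 and 8.19 CPM in P10 libraries. The groups did not overlap, and P10 replicate 3 was the lowest of the pups. Adult over P10, the log2 fold change was -0.76 (SE 0.25, Benjamini-Hochberg adjusted p = 0.0537 in edgeR), and the call was lost without P10 replicate 2 (-0.68). Among the TSS-class sites, chr3:154213726-154213967 had 10.4, 9.64 and 9.28 CPM in Adult and 13.6, 13.5 and 11.6 CPM in P10 libraries. The adults were all lower there as well. Its log2 fold change of -0.40 (SE 0.22, Benjamini-Hochberg adjusted p = 0.305 in edgeR) was not called with TMM, and it passed with column sums (-0.50), with cyclic loess (-0.53) and when sites with a mean under 50 counts were dropped (-0.49). The other TSS-class sites did not separate the groups. They were chr3:154213127-154213467, with 6.64 ± 1.71 CPM (SD, n = 3) in Adult and 8.03 ± 1.37 CPM (SD, n = 3) in P10, and chr3:154214346-154214855, the most accessible of the 5, with 29.4 ± 1.97 and 30.6 ± 1.96 CPM (SD, n = 3).

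Among the SoxD genes, Sox5 is a long gene, 370693 bases at chr4:242270809-242641501 on the - strand, and in islets its product is known to act on beta cell genes. Of its 31 sites, 18 lay inside the gene, 28 were DISTAL and 3 were of the TSS class. The summed level was 139, 145 and 162 CPM in Adult and 122.6, 134 and 140 CPM in P10 libraries. Adult replicate 4 fell below P10 replicate 3, so the groups overlapped. The summed log2 fold change of 0.17 (SE 0.11, Benjamini-Hochberg adjusted p = 0.398 in edgeR) was not called. The TSS-class sites alone gave -0.36, also not called.

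Individual Sox5 sites ranged more widely than this sum, from -2.18 to 1.34 on the log2 scale, with 4 raised and 2 lowered. These were 12.9% and 6.45% of its sites, close to the 12.3% and 6.63% of all sites. The highest in CPM was the raised site chr4:242212255-242212710, 58099 bases past the 3′ end of the gene. It had 22.7, 20.2 and 23.2 CPM in Adult and 11.4, 8.06 and 9.09 CPM in P10 libraries. The adults were all well above the pups. On the log2 scale the ages differed by 1.20 (SE 0.21, Benjamini-Hochberg adjusted p = 0.000326 in edgeR), and 1.08 to 1.34 with 1 library left out.

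Inside Sox5, chr4:242451000-242451204 had 9.85, 12.95 and 13.3 CPM in Adult and 4.04, 4.85 and 5.34 CPM in P10 libraries. These groups also stood apart. That was a log2 fold change of 1.34 (SE 0.25, Benjamini-Hochberg adjusted p = 0.000625 in edgeR). A neighbour inside the gene, chr4:242473452-242473785, had 15.1, 10.3 and 7.48 CPM in Adult and 3.39, 6.56 and 4.23 CPM in P10 libraries. The adults varied widely there and were still all above the litters. The ratio of the ages was 1.24 (SE 0.29, Benjamini-Hochberg adjusted p = 0.00523 in edgeR) on the log2 scale. The fourth raised site, chr4:242149139-242149534, had 7.86, 4.58 and 4.64 CPM in Adult and 2.74, 4.14 and 2.96 CPM in P10 libraries. Adult replicate 4 was much the highest. The log2 fold change was 0.82 (SE 0.31, Benjamini-Hochberg adjusted p = 0.101 in edgeR), and the call was lost without Adult replicate 4 (0.50), P10 replicate 1 (0.69) or P10 replicate 3 (0.73).

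The site with the largest change of all 164 was lowered, chr4:243060217-243060682, 418716 bases upstream of Sox5. It had 0.271, 1.95 and 0.645 CPM in Adult, from 3, 20 and 5 counts, and 2.83, 6.06 and 4.39 CPM in P10 libraries, from 61, 85 and 83 counts. It was nearly closed in Adult replicates 4 and 6, and Adult replicate 5 was still below every litter. This gave a log2 fold change of -2.18 (SE 0.46, Benjamini-Hochberg adjusted p = 0.00245 in edgeR). Leaving out a library moved it between -3.32 (without Adult replicate 5) and -1.69, and the call was kept each time. The other lowered site, chr4:242487584-242487962 inside the gene, had 10 to 17 counts in Adult and 39 to 53 in P10 libraries. Its log2 fold change of -0.86 (SE 0.38, Benjamini-Hochberg adjusted p = 0.182 in edgeR) was called only with all libraries or without Adult replicate 5. The other omissions gave -0.72 (Adult replicate 4), -0.84 (Adult replicate 6), -0.87 (P10 replicate 1), -0.77 (P10 replicate 2) and -0.99 (P10 replicate 3), and limma voom (-0.83), DESeq2 (-0.88) and cyclic loess (-0.68) did not call it either.

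At the Sox5 start the sites were faint. The strongest, chr4:242642472-242642820, had 2.26, 3.70 and 2.32 CPM in Adult and 3.90, 4.14 and 3.75 CPM in P10 libraries. The adults were all lower, replicate 5 only by a little. There, the log2 fold change of -0.50 (SE 0.32, Benjamini-Hochberg adjusted p = 0.402 in edgeR) was not called, and without Adult replicate 5 it was -0.78 and passed the limits. At chr4:242641066-242641470 it was -0.54 (SE 0.35), and at chr4:242642157-242642420 it was -0.22 (SE 0.41), with overlapping groups at both. The value at the latter turned to 0.08 without P10 replicate 2.

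Sox6 had the most sites, 54, all DISTAL, with 25 inside its gene of 507328 bases at chr1:192644288-193151615, 25 downstream and 4 upstream. The table places Sox6 and Sox13 on the + strand of Rn5, whereas RefSeq places both on the - strand of GRCr8, and upstream, downstream and 3′ end follow the table for each gene. In beta cells its product is known to bind Pdx1 and to lower insulin gene transcription. The summed level was 180, 183 and 188 CPM in Adult and 196, 171 and 182 CPM in P10 libraries. The adults lay within the range of the litters. Adult over P10, the log2 fold change was 0.01 (SE 0.11, Benjamini-Hochberg adjusted p = 0.983 in edgeR), and its sign turned with column sums (-0.08), cyclic loess (-0.14) and without Adult replicate 6 (-0.01) or P10 replicate 2 (-0.04).

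Sox6 had 1 raised site and 5 lowered ones. These were 1.85% and 9.26% of its sites, against 12.3% and 6.63% of all sites, and the differences were not tested. The raised site, chr1:193141991-193142279, lies inside the gene near its 3′ end, 9336 bases from it. It had 9.22, 6.53 and 7.73 CPM in Adult and 3.39, 2.35 and 2.80 CPM in P10 libraries. Every adult was far above every litter. On the log2 scale the ages differed by 1.45 (SE 0.28, Benjamini-Hochberg adjusted p = 0.0011 in edgeR), and 1.31 to 1.58 with 1 library left out.

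Of the lowered Sox6 sites, the upstream one, chr1:192591562-192592088, had 5.69, 4.29 and 4.77 CPM in Adult and 9.53, 8.42 and 6.87 CPM in P10 libraries. The groups did not overlap, and P10 replicate 3 was the lowest litter. That was a log2 fold change of -0.75 (SE 0.26, Benjamini-Hochberg adjusted p = 0.0745 in edgeR), called with any 1 library left out. Inside the gene, chr1:192933369-192933930 had 2.17, 3.99 and 3.48 CPM in Adult and 6.46, 6.06 and 5.92 CPM in P10 libraries. The litters were close to each other and above all adults. The ratio of the ages was -0.94 (SE 0.30, Benjamini-Hochberg adjusted p = 0.0431 in edgeR) on the log2 scale, and the call was lost without Adult replicate 4 (-0.71).

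The next lowered Sox6 sites by p had few counts. The site chr1:193309788-193310042 had 0, 3 and 5 counts in Adult and 22, 7 and 27 in P10 libraries. In CPM, Adult replicate 6 lay above P10 replicate 2, so the groups overlapped. The fitted log2 fold change was -1.80 (SE 0.66, Benjamini-Hochberg adjusted p = 0.0914 in edgeR), and the call was lost without Adult replicate 4 (-1.15) and without P10 replicate 3 (-1.46). Without Adult replicate 6 it was -2.76. At chr1:193021979-193022233, with 4 to 9 counts in Adult and 18 to 39 in P10 libraries, the log2 fold change was -1.21 (SE 0.47, Benjamini-Hochberg adjusted p = 0.112 in edgeR), lost without Adult replicate 4 (-0.88), P10 replicate 1 (-1.07) or P10 replicate 3 (-1.25) and with cyclic loess (-0.83). The fifth, chr1:192783865-192784448, is given because it completes the count and was chosen after its values were seen. It had 23, 31 and 20 counts in Adult and 83, 71 and 86 in P10 libraries. Its log2 fold change was -0.81 (edgeR, Benjamini-Hochberg adjusted p = 0.118), and the call was lost without Adult replicate 4 (-0.67), Adult replicate 6 (-0.81), P10 replicate 2 (-0.73) or P10 replicate 3 (-0.81). The most accessible Sox6 site by CPM, chr1:193454175-193454580, had 17.9 ± 3.97 CPM (SD, n = 3) in Adult and 16.5 ± 2.12 CPM (SD, n = 3) in P10 and was not called.

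Sox13, first described as an autoantigen of islet cells, had 6 sites around its gene at chr13:55487561-55531977. The summed level was 48.1, 55.8 and 41.7 CPM in Adult and 56.6, 47.4 and 40.9 CPM in P10 libraries. The libraries of both ages were interleaved. The log2 fold change was 0.01 (SE 0.14, Benjamini-Hochberg adjusted p = 0.978 in edgeR), and its sign depended on the scaling, with -0.08 for column sums. It also turned without Adult replicate 5 (-0.10), P10 replicate 2 (-0.00309) or P10 replicate 3 (-0.10). The site across the start, chr13:55487167-55487816, had 19.2, 16.6 and 13.02 CPM in Adult and 24.4, 17.1 and 16.1 CPM in P10 libraries. Values of the ages were mixed, for a log2 fold change of -0.24 (SE 0.21, Benjamini-Hochberg adjusted p = 0.587 in edgeR). With 1 library left out it was -0.37 to -0.04.

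The only called Sox13 site was chr13:55514026-55514278, inside the gene. It had 3.89, 6.62 and 5.41 CPM in Adult and 3.81, 3.00 and 2.01 CPM in P10 libraries. Adult replicate 4 was just above P10 replicate 1, so the groups barely separated. This gave a log2 fold change of 0.84 (SE 0.32, Benjamini-Hochberg adjusted p = 0.102 in edgeR), and the call was lost without Adult replicate 5 (0.64), P10 replicate 2 (0.84) or P10 replicate 3 (0.62).

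**Figure D3:**
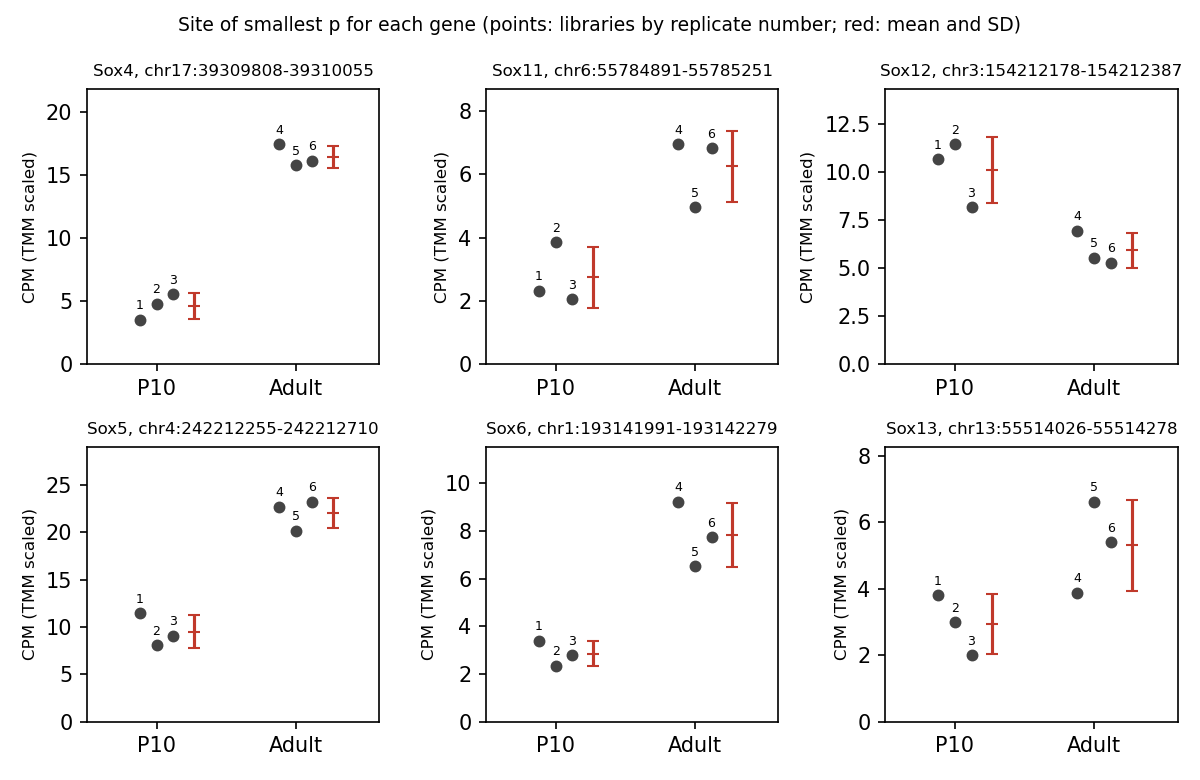
CPM per library (y axis) at the site of smallest p for each of the 6 genes, in P10 and Adult islets (x axis), with the mean and SD of each group in red. The sites were picked by p, so the gap between the groups in each panel follows from that choice. Over all sites, 13.8% had every Adult library above every P10 library and 10.9% had every one below. The Sox12 site is lower in Adult and the other 5 are higher, which does not give the direction of a gene's other sites.

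The genes differed in how their sites were placed. Inside the gene lay 46 of the 91 SoxD sites and 1 of the 73 SoxC sites, and the SoxC gene models were at most 4706 bases long. Per kilobase of site, the main promoter site of Sox12, meaning its TSS-class site with the highest mean count, ranged from 54.2 to 63.5 CPM over the 6 libraries (median 58.8). That was above Sox4, with 25.1 to 32.9 (median 26.4), and Sox13, with 20.03 to 37.5 (median 25.9). Sox4 and Sox13 did not differ beyond the spread of the libraries. Sox5 was lowest, at 6.47 to 11.9 (median 10.7). The place of Sox4 rests on the division by the width of the site. This was 1868 bases at Sox4, 510 at Sox12 and 650 at Sox13. Without that division, the mean was 52.0 CPM at Sox4, 30.0 CPM at Sox12 and 17.7 CPM at Sox13.

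Promoters with the most similar pattern over the 6 libraries were found among 9236 main promoter sites, by the root mean square difference of centred log2 CPM. For Sox4 they were those of Bloc1s5 (0.0198), Lta4h (0.0252) and Tars (0.0279). For Sox12 they included RGD1307325 (0.0263) and Eif2ak3 (0.0303). For Sox13 they were Etf1 (0.0279), Sugp1 (0.0339) and Ovca2 (0.0343). For the Sox5 promoter they were St5 (0.0447), Camk1d (0.0660) and Ddx31 (0.0670). The promoter sites searched averaged at least 50 counts, and the Sox5 site itself averaged 49.0. With 9236 sites compared over 6 libraries, close matches are likely for any site. The promoter sites of these genes were not called with TMM, and shared regulation was not tested.

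Promoter sequences show how unlike the starts of these genes are in base composition. RefSeq promoters of GRCr8, 250 bases before to 50 after a start, matched 4 of the 6 genes, Sox11, Sox12, Sox6 and Sox13, and Sox4 and Sox5 were not matched in the promoter table used here. GRCr8 is another build than Rn5, so these positions are not compared with those of the sites. The promoters of Sox12 (GRCr8 chr3:161320770-161321069, - strand) and Sox13 (GRCr8 chr13:47427523-47427822, - strand) are shown because sites lay at the starts of both genes, and that of Sox6 (GRCr8 chr1:179665322-179665621, - strand) because none did. Sox11 also had no site at its start, and its sequence is not shown. Base composition was not tested against the presence of a site. Capitals mark CG dinucleotides and, in Sox6, also a match to a SOX motif.
Sox12: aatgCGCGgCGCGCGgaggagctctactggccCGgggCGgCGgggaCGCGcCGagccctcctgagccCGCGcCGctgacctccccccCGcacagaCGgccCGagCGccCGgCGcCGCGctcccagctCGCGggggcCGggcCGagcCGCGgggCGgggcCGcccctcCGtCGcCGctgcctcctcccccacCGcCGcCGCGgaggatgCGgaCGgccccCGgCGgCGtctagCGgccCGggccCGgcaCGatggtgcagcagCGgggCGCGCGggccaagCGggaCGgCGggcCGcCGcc
Sox13: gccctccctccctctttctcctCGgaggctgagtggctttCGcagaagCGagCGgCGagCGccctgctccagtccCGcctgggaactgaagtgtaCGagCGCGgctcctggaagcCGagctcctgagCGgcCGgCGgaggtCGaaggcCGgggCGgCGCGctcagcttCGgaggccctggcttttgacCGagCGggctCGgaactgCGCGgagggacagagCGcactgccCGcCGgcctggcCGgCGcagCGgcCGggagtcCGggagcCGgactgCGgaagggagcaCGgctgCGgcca
Sox6: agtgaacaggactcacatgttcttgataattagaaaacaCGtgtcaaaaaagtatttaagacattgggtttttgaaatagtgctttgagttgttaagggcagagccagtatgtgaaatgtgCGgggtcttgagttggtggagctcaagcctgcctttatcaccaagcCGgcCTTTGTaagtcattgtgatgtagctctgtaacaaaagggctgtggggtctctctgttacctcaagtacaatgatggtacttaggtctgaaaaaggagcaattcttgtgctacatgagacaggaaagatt
Sox12 had 55 CG dinucleotides and 84.3% G or C, and 99.8% of the 27457 promoters of 300 bases had fewer CG. Sox13 had 37 (73.0% G or C), Sox11 had 20 (58.0%) and Sox6 had 3 (42.0%), against medians of 7 and 52.3% over all promoters. The SOX motifs searched on both strands were AACAAT and ACAAAG, which share the letters ACAA. The motif ACAAAG was found once, in Sox6 as its reverse complement CTTTGT, and 18.3% of all promoters hold it. The motif AACAAT was in none of the 4 and is in 11.6% of all promoters.

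Among 14 other SOX genes, summed over their sites, 8 had sites, Sox14 was raised and the other 7 were not called. Over all genes, 10.7% were raised and 7.77% lowered. Sox14 is known from interneurons. It had 50.6, 47.7 and 47.1 CPM in Adult and 32.2, 38.4 and 37.4 CPM in P10 libraries. The adults were close together and all above the litters. Adult over P10, the log2 fold change was 0.43 (SE 0.13, Benjamini-Hochberg adjusted p = 0.0542 in edgeR) and was called with any 1 library left out. The genes Sox2 (0.20), Sox8 (0.09), Sox9 (0.08), Sox17 (0.02), Sox18 (0.09), Sox7 (-0.18) and Sox15 (-0.55) had these log2 fold changes. With 1 library left out, Sox2 was 0.13 to 0.28, and it was called in 1 omission. The same omissions gave -0.02 to 0.22 for Sox8, 0.04 to 0.14 for Sox9 and -0.04 to 0.10 for Sox17. They gave 0.03 to 0.13 for Sox18, -0.51 to -0.02 for Sox7 and -0.81 to -0.26 for Sox15. Sox9, the progenitor and duct factor that works beside Sox5 and Sox6 in cartilage, had 101 ± 8.06 CPM (SD, n = 3) in Adult and 96.1 ± 2.30 CPM (SD, n = 3) in P10. No site was found by symbol or matched gene ID for Sry, Sox1, Sox3, Sox21, Sox10 and Sox30.

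Of 28 partners and known targets of SoxC and SoxD proteins, 25 had sites, 2 were raised, 2 were lowered and 21 were not called, with a median log2 fold change of -0.01, against -0.02 over all genes. The background over all genes was 10.7% raised and 7.77% lowered. Bcl11b, a zinc finger factor of neurons and T cells, had 185, 190 and 189 CPM in Adult and 133, 137 and 147 CPM in P10 libraries. The groups were clearly apart, and the log2 fold change was 0.44 (SE 0.11, Benjamini-Hochberg adjusted p = 0.0266 in edgeR). Ctnnb1, the beta-catenin gene, had 104, 114 and 91.9 CPM in Adult and 98.6, 81.4 and 73.4 CPM in P10 libraries. The groups overlapped, and its log2 fold change of 0.29 (SE 0.13, Benjamini-Hochberg adjusted p = 0.188 in edgeR) was lost as a call without Adult replicate 4 (0.29), Adult replicate 5 (0.21), P10 replicate 2 (0.27) or P10 replicate 3 (0.20).

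Both insulin genes were lowered. Ins1 had 192, 175 and 201 CPM in Adult and 327, 241 and 285 CPM in P10 libraries, and all adults were below all litters. Its log2 fold change was -0.59 (SE 0.13, Benjamini-Hochberg adjusted p = 0.0134 in edgeR). Ins2 had 29.5, 31.3 and 26.1 CPM in Adult and 44.5, 34.6 and 34.0 CPM in P10 libraries, again without overlap. Its log2 fold change was -0.38 (SE 0.15, Benjamini-Hochberg adjusted p = 0.140 in edgeR), and the call was lost without Adult replicate 4 (-0.39), Adult replicate 6 (-0.31), P10 replicate 1 (-0.26) or P10 replicate 2 (-0.44). Pdx1, the partner of Sox6, had -0.14 (-0.32 to 0.03 with 1 library left out) and was not called. For Tead2, Neurog3 and Tcf7 no site was found.

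Marker genes of several cell types were also summed over their sites. A site nearest to a marker gene does not show that its cells were present. For every list below, the background was 10.7% of all genes raised and 7.77% lowered. Of 10 beta cell genes, 8 had sites, with Nkx6-1 raised and Ins1 and Ins2 lowered, and the list summed to 1173, 1081 and 1200 CPM in Adult and 1267, 1027 and 1044 CPM in P10 libraries, with Slc2a2 the largest and a median log2 fold change of 0.21. All 6 alpha cell genes had sites, with Irx1 and Ttr raised and 1 gene lowered, and summed to 1009, 958 and 1096 CPM in Adult and 865, 814 and 931 CPM in P10 libraries, with Irx2 the largest. The alpha sum was thus higher in every adult than in every litter, as was the summed level of Sox4, but its genes went both ways, with Gcg, the glucagon gene, at a log2 fold change of -0.24 and a median of 0.21, as in the beta list. The part of alpha cells in the Sox4 result was not tested. All 3 delta cell genes had sites, with Hhex and Rbp4 lowered, and summed to 185, 161 and 187 CPM in Adult and 177, 193 and 184 CPM in P10 libraries, with Sst the largest and a median of -0.54. For the beta cell markers Mafa and G6pc2 and the PP cell marker Ppy no site was found.

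Genes used as markers of non-endocrine cells also had sites. The 7 endothelial genes, with Kdr and Cdh5 raised and Plvap lowered, summed to 534, 497 and 588 CPM in Adult and 460, 453 and 466 CPM in P10 libraries, with Cdh5 the largest. Of 10 acinar genes, 7 had sites, with 2 lowered, Prss1 among them, and summed to 434, 413 and 437 CPM in Adult and 396, 390 and 398 CPM in P10 libraries, with Ptf1a the largest. Of 7 duct genes, 6 had sites, with Cftr raised and Muc1 lowered, and summed to 308, 303 and 331 CPM against 271, 274 and 300 CPM, with Sox9 the largest. The 3 sums were higher in every adult library than in every litter, but the genes went both ways, with a median log2 fold change of -0.04 in the endothelial list, -0.12 in the acinar list and 0.02 in the duct list. The part of these cell types in the results was not tested either.

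In the remaining lists the ages overlapped. The 8 mesenchyme genes summed to 473, 475 and 546 CPM in Adult and 434, 457 and 482 CPM in P10 libraries, with Col1a2 the largest, a median log2 fold change of -0.04 and no gene called. Of 7 immune genes, 4 had sites, with Laptm5 raised, and summed to 37.7, 41.4 and 43.6 CPM against 35.8, 32.8 and 43.9 CPM, with Ptprc the largest and a median of 0.17. Of 6 Schwann cell genes, 4 had sites and were not called, and summed to 40.3, 38.1 and 29.4 CPM against 44.3, 44.0 and 39.3 CPM, with Ngfr the largest and a median of -0.35. The 6 genes of cycling cells, with Aurkb lowered, summed to 343, 356 and 331 CPM against 347, 384 and 359 CPM, with Mki67 the largest and a median of -0.19. For the markers Cela1, Cel, Amy2a3, Krt7, Cd68 and Lyz2 no site was found. Of the 17 marker genes called over all lists, 7 were called with every library left out in turn.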

How the data were processed

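Reads were aligned by the authors with BWA 0.7.13 (Rn5). They called peaks with MACS2 2.1.1 on the pooled reads of each age, merged them, and deposited whole-number counts of Tn5 integrations per site and library from pyDNase. Whether PCR duplicates were removed is not given in the sources used here, so standard errors cover error as it stands in the counts. The deposited table also holds the authors' own log2 fold change, average log2 CPM, F, p-value and FDR per site, which were not used.

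A site listed with several genes entered the fit once (101941 entries, 101603 sites). Of 833 gene IDs without a symbol, 809 were matched by RefSeq. The members and lists were chosen with earlier results of these data known. Tests were edgeR 4.0.16 quasi-likelihood fits in R 4.3.3, with TMM factors (0.930 to 1.05), no filter and Benjamini-Hochberg adjustment over all sites, or over 14663 genes with counts summed over the sites of a gene. Gene sums have their own TMM factors (0.941 to 1.06). Standard errors were derived from the F statistic. The study used edgeR with the same limits.

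Sites given singly were every TSS-class site, the called sites of each gene (up to 4 in each direction by p), and the sites of highest mean CPM and largest change. From the partner list, up to 3 genes in each direction were named. Likeness was taken on log2 CPM (prior count 2) between each member's main promoter site, whatever its counts, and promoter sites averaging 50 counts or more. Some genes of the marker and likeness lists are not reported here by name. The code was tested on simulated data. Alternatives were limma voom (3.58.1), DESeq2 (1.42.0), other scalings and filters, every listed entry, sites within 100 kb, TSS-class sites alone, a stricter limit and leaving out each library. Figures used matplotlib 3.10.9 in Python 3.11.15.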

Additional observations from a re-analysis of the deposited data

How the results depend on the processing

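Calls and directions were recomputed under each alternative. Sites called higher (20 with the settings of the report) numbered 14 to 24 with 1 library left out, 11 at a false discovery rate under 0.05, 1 with total reads as library sizes, and 9 over the genes listed by symbol, without Sox4, an alternative chosen after seeing the data. Sites called lower (11) numbered 6 to 13, 3 and 86 under the first 3 of these. Raised Sox4 sites (11) numbered 7 to 14, 6 and 1. Every other scaling, test and filter gave counts within 1.5 times these.

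Summed levels, with 1 library left out, ranged from 0.33 to 0.48 on the log2 scale for Sox4, 0.013 to 0.19 for Sox11, -0.32 to -0.23 for Sox12, 0.10 to 0.21 for Sox5, -0.039 to 0.044 for Sox6 and -0.10 to 0.13 for Sox13. With total reads they were -0.42 for Sox4, -0.71 for Sox11, -1.12 for Sox12, -0.66 for Sox5, -0.84 for Sox6 and -0.85 for Sox13. With column sums, Sox11 was 0.021 (0.11 with the settings of the report), Sox5 was 0.080 (0.17), Sox6 was -0.084 (0.0057) and Sox13 was -0.081 (0.0094). With cyclic loess, Sox4 was 0.20 and not called, Sox11 was 0.013, Sox5 was 0.043, Sox6 was -0.14 and Sox13 was 0.016. Over TSS-class sites alone, Sox12 was -0.077 and not called, Sox5 -0.36 and Sox13 -0.14. Over sites within 100 kb, Sox11 was -0.059, Sox5 was 0.10, Sox6 was 0.026 and Sox13 was 0.024. Sox6 and Sox13 were 0.011 and 0.019 with limma voom, 0.0094 and 0.014 with DESeq2, and 0.0097 and 0.014 with median-of-ratios factors. At a false discovery rate under 0.05, neither Sox4 (0.40) nor Sox12 (-0.28) was called.

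Of 532 values for the 34 sites given singly, 13 changed sign. With total reads these were the Sox4 sites starting at 39193761 (-0.081), 39470643 (-0.15) and 39476723 (-0.65), the Sox11 site at 55823245 (-0.27), the Sox6 site at 193454175 (-0.72) and the Sox13 site at 55514026 (-0.029). The Sox6 site was also -0.011 with cyclic loess and -0.066 to 0.25 with a library left out. The Sox11 site at 55189258 was 0.0077 with limma voom and -0.20 to 0.11 with a library left out, and the Sox5 site at 242642157 was -0.58 to 0.079. In 34 of 204 values with a library left out, and in 31 of 328 others, a call was lost, 4 of the 31 with a change of sign under total reads. DESeq2 gave no adjusted p for 25 of the 164 sites, 2 of them called by edgeR. The causes were not tested.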
